A study of Mus musculus and Homo sapiens with 12 samples.

Results

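MLT1 elements are a group of mammalian apparent LTR retrotransposons (MaLRs), and they were described here in m5C-immunoprecipitated chromatin-associated RNA (caRNA) of K-562 cells. The members were all elements of the human repeat table whose family was ERVL-MaLR and whose subfamily name began with MLT1. This rule used names alone and gave 197766 of the 3919868 elements in the table (5.05%), in 61 subfamilies. Of these, 30 were LTR subfamilies with 193811 elements, and 31 were internal-region subfamilies (names ending in -int) with 3955 elements.

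The study immunoprecipitated caRNA, the RNA that stays with chromatin after nuclear fractionation, with an antibody against 5-methylcytosine (m5C) and sequenced it (meRIP–seq). K-562 is a human chronic myeloid leukaemia line, compared as WT and as TET2 KO, with 3 libraries of each genotype. TET2 is an enzyme that oxidises 5-methylcytosine, and the comparison asked which repeat RNAs of the m5C-bound fraction differ when it is lost. The KO libraries carry the cell-line name K563 in 1 label field; since their titles give K562, this was taken for a slip. The knockout cells were obtained as a gift. The study calls the replicates of its genome-wide data biological, but whether they were separate cultures, and whether the KO cells are 1 clone, is not given in the sources used here, so p-values measure only the spread between these libraries. The table held repeats only, so the cell line could not be checked against marker genes.

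MaLRs are non-autonomous relatives of the ERVL endogenous retroviruses. They entered mammalian genomes by copying through RNA, and most copies survive as solitary LTRs, left when both LTRs of a provirus recombine. MLT1 is the oldest MaLR group and is shared widely among placental mammals, whereas the MST and THE1 groups are younger. MLT1 LTRs are worn by mutation, lie in introns and between genes, and can be copied again when the DNA around them is duplicated, so a read from such a segment can match several genomic copies.

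The first 300 bases of 6 elements are printed from hg38, on the strand of the element, with each CG dinucleotide in capitals, since CG pairs were counted in the members as a sequence feature. The first 3 had counts in all 6 libraries: an MLT1A copy in an intron of DHRSX in the pseudoautosomal region, on the opposite strand to the gene; an MLT1D copy in an intron of KREMEN1, a co-receptor that limits Wnt signalling, on the gene's strand; and an MLT1K copy in an intron of the long non-coding RNA gene LINC02620, on the opposite strand. The other 3 were chosen after their values were seen. They are an MLT1A0 copy in an intron of GUSBP13, a beta-glucuronidase pseudogene, with counts in the KO libraries alone, and an MLT1H1 and an MLT1D copy that lay 11768 bp apart in introns of 1 unnamed gene on chromosome 16 and had opposite patterns.
MLT1A in DHRSX (chrX:2321388-2321687, plus strand): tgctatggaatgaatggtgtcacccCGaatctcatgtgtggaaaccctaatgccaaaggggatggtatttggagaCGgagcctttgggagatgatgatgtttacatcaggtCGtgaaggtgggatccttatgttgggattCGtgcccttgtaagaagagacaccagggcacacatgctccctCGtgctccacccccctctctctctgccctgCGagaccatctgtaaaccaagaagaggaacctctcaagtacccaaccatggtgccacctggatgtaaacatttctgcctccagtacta
MLT1D in KREMEN1 (chr22:29120559-29120858, plus strand): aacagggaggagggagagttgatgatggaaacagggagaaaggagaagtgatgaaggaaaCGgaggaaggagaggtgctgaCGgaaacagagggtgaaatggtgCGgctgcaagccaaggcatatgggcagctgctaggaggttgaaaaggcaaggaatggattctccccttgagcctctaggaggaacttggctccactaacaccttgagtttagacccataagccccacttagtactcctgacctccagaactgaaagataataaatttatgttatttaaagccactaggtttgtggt
MLT1K in LINC02620 (chr10:104479508-104479807, plus strand): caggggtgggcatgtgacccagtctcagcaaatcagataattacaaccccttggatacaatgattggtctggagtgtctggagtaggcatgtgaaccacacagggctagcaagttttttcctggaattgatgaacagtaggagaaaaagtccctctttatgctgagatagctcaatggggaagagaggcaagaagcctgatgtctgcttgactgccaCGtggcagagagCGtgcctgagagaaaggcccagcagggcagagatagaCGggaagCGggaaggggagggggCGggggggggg
MLT1A0 in GUSBP13 (chr5:69894430-69894729, plus strand): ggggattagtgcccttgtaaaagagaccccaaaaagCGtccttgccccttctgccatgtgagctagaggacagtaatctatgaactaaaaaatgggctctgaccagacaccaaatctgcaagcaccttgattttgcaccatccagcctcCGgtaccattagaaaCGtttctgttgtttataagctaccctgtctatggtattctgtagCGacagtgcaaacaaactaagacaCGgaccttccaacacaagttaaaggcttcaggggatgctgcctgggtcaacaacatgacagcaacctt
MLT1H1 on chromosome 16 (chr16:16503178-16503477, plus strand): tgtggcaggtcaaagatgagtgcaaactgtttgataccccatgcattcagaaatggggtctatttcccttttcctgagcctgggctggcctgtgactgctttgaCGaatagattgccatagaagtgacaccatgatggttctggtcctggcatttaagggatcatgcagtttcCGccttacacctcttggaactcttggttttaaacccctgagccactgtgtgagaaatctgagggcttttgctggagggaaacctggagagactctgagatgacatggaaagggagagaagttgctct
MLT1D on chromosome 16 (chr16:16515822-16516121, plus strand): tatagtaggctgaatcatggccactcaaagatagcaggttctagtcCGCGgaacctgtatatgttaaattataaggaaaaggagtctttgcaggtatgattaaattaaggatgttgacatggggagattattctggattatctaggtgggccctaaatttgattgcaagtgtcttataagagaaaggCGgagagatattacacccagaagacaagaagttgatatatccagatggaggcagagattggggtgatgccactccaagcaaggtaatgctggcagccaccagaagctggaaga

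The 6 printed elements were 333 to 876 bp long and held 3 to 7 CG pairs each over their whole length. The MLT1A element had an identical copy on chromosome Y at the same coordinates, the MLT1A0 element had 11 near-identical relatives, and the MLT1H1 and MLT1D elements of chromosome 16 had 4 each. The KREMEN1 and LINC02620 elements had none. Near-identical here means at least 97% identity over at least 90% of both elements, and elements linked in this way were joined into a copy set.

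Only 7547 MLT1 elements (3.82%) had any count, against 8.06% of all elements in the table, and 5 of the 61 subfamilies had none. The 6 libraries held 498145 to 827341 counts over the repeat classes DNA, LINE, LTR and SINE, and the lowest KO library lay above the highest WT library. MLT1 elements had 8729.9, 10240.1 and 11745 counts in WT against 18818, 21506 and 15814 in KO. They made up 1.34, 2.06 and 2.1% of the library in WT and 2.29, 3.01 and 1.91% in KO. KO replicate 3 lay inside the WT range, so the groups overlapped. The mean share was 1.83% ± 0.424 in WT and 2.40% ± 0.557 in KO (SD, n = 3), a log2 ratio of 0.39 (exact permutation test, two-sided, p = 0.3). Over the 5 summary measures tested in this way the adjusted p was 0.5, and 3 libraries against 3 cannot give an exact p below 0.1.

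The share depends on what else filled the libraries. 3 elements of FordPrefect, a DNA transposon, held 7.21 to 9.84% of the counts in WT against 23.0 to 23.6% in KO. Without them the MLT1 share was 1.45, 2.27 and 2.33% in WT and 2.97, 3.94 and 2.50% in KO, which did not overlap (log2 ratio 0.64, exact permutation p = 0.1). Leaving them out raises the share of every other group in a library by the same factor, so this shift is not particular to MLT1. For the same reason the log2 ratio of MLT1 to THE1 and MST, the younger MaLRs, cannot change when they are left out. Its difference of 0.36 (exact permutation p = 0.5) is the same with and without them by construction, and it is no further check.

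The younger MaLRs, THE1 and MST, gave a reference within the same family. Their share was 2.84, 3.83 and 2.91% in WT and 2.62, 2.90 and 4.52% in KO. KO replicate 3, the KO library with the lowest MLT1 share, had the highest THE1 and MST share of all 6. The log2 ratio of the MLT1 share to the THE1 and MST share was −1.08, −0.896 and −0.474 in WT and −0.197, 0.0522 and −1.24 in KO. The mean differed by 0.36, with overlapping groups (exact permutation p = 0.5, adjusted p = 0.6). MLT2, the LTRs of ERVL itself, made up 0.0559 to 0.219% of a library, and their groups overlapped too.

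**Figure D1:**
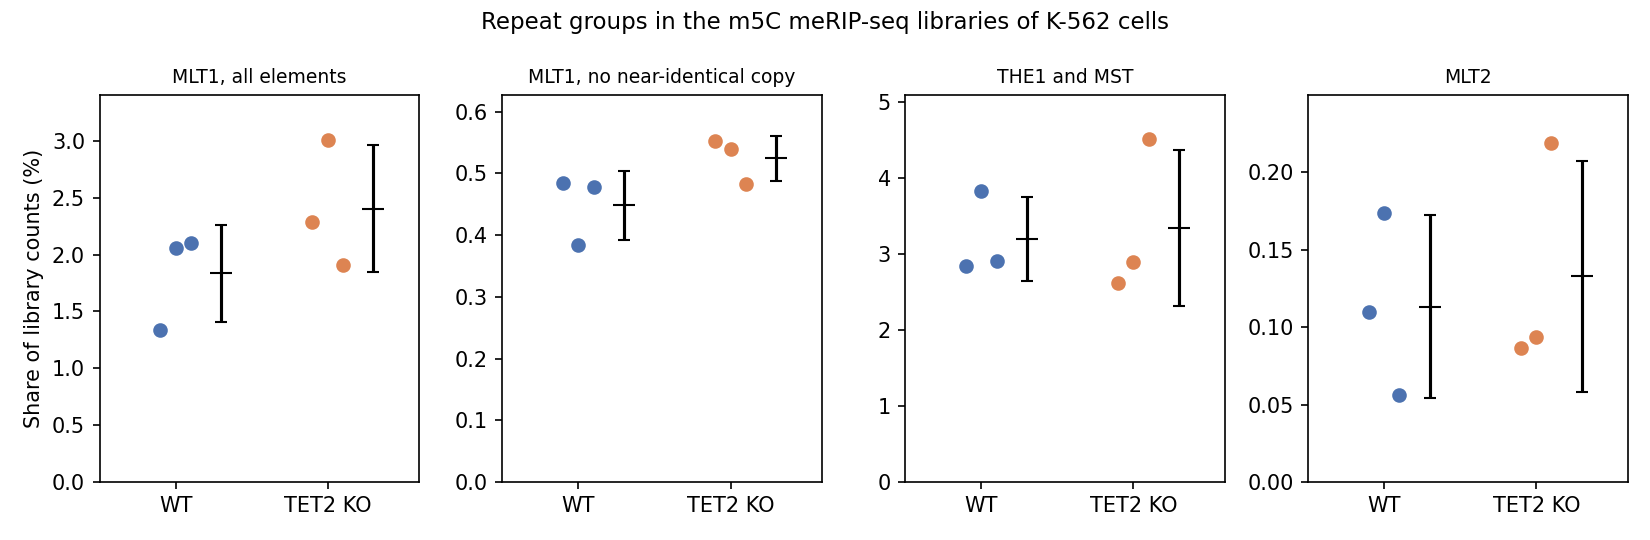
Share of the library's counts (%, linear axes from 0, each panel with its own scale) held by all MLT1 elements, by MLT1 elements without a near-identical copy, by THE1 and MST, and by MLT2. Points are libraries and the bars beside them are mean ± SD (n = 3); WT and TET2 KO overlap in every panel.

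Most of the MLT1 signal lay on elements with near-identical copies. Such elements were 7.65% of all MLT1 elements and 15.8% of those with counts, but they held 64.0, 81.3 and 77.2% of the MLT1 counts in WT against 75.9, 82.1 and 74.7% in KO. The remaining elements, each alone in its sequence, made up 0.484, 0.384 and 0.478% of the library in WT and 0.552, 0.539 and 0.483% in KO. KO replicate 3 lay just below WT replicate 1, so these groups overlapped as well. Alternate and unplaced sequences of hg38, on which a duplicated region is represented more than once, held 16.0 to 35.3% of the MLT1 counts of a library, against 18.4 to 21.4% of all counts.

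The copied elements clustered on particular chromosomes. Chromosome 5, with its alternate sequences, held 6.69% of MLT1 elements and 16.0% of MLT1 counts, and chromosome 16 held 3.48% of elements and 15.8% of counts. The excess lay in the copied elements: of the counts on elements without a near-identical copy, chromosome 5 held 6.85% and chromosome 16 held 3.92%. Between libraries the share of chromosome 5 ran from 6.64% in WT replicate 1 to 28.1% in WT replicate 2, so a single genotype spanned the whole range.

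Most loci were seen in 1 library alone. Of the 7547 elements with counts, 5787 (76.7%) had them in a single library and 99 (1.31%) in all 6. Among THE1 and MST elements the corresponding figures were 72.7% and 1.75%, and over the 4 classes 67.5% and 4.00%. The single-library elements held 43.6% of the MLT1 counts, and the elements seen in all 6 libraries held 11.4%. High counts often came from 1 library. Of the 308 elements with at least 50 counts over the 6 libraries, 198 (64.3%) had at least 90% of them in 1 library. After joining near-identical copies, this held for 115 of 165 copy sets (69.7%). Elements seen in 1 library held 37.9, 36.2 and 25.5% of the MLT1 counts in WT against 38.7, 49.9 and 62.2% in KO. Over all counts of the 4 classes this share was 20.2, 19.4 and 16.8% in WT and 21.9, 22.3 and 21.6% in KO. There too every KO library lay above every WT library, so the direction is not particular to MLT1. For THE1 and MST the same share ran from 11.8 to 20.6%, and for MLT2 it ran from 47.1 to 72.8%, as high as for MLT1.

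The highest loci held a larger part of the MLT1 counts in WT than in KO, although the number of loci behind 90% of the counts overlapped. The single highest locus held 8.99, 4.55 and 12.3% of the MLT1 counts in WT against 3.09, 2.32 and 4.14% in KO. The 10 highest loci of each library held 41.6, 34.2 and 48.0% in WT and 20.8, 19.3 and 25.5% in KO, with no overlap between the genotypes. The mean was 41.3% ± 6.92 in WT and 21.9% ± 3.24 in KO (SD, n = 3), a log2 ratio of −0.92 (two-sided exact permutation p = 0.1, the lowest this design allows, adjusted p = 0.5 over the 5 measures). It took 17, 19 and 12 loci to reach 50% of the MLT1 counts in WT against 48, 45 and 31 in KO. For THE1 and MST loci these numbers were 25, 23 and 17 in WT and 37, 27 and 28 in KO. To reach 90% of the MLT1 counts it took 406, 199 and 139 loci in WT and 481, 332 and 467 in KO, and here WT replicate 1 lay above KO replicate 2. The KO libraries were also deeper, and the part of depth in this difference was not tested.

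The order of the genotypes was the same when near-identical copies were joined. The 10 highest copy sets of each library held 56.4, 71.6 and 67.1% of the MLT1 counts in WT against 40.8, 47.9 and 42.4% in KO. The number of MLT1 elements with counts was 1667, 1330 and 1209 in WT and 2252, 2054 and 2072 in KO. At a common depth of 8559 rounded MLT1 counts, the lowest total of the 6 libraries, 1025, 752 and 653 elements were expected in WT and 1108, 959 and 1116 in KO. WT replicate 1 then lay above KO replicate 2, and the means of 810.2 ± 193 and 1061 ± 88.5 (SD, n = 3) gave a log2 ratio of 0.39 (exact permutation p = 0.2, adjusted p = 0.5).

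Elements with counts differed from the rest in sequence and place. Their median length was 501 bp against 366 bp for the elements without counts, and they held 1.15 CG pairs per 100 bases against 0.747. On the assembled chromosomes 51.1% lay in introns and 7.44% touched an exon of an annotated gene, compared with 47.6% and 4.39% of the elements without counts. Among elements inside genes of 1 strand, 51.0% of those with counts ran in the direction of the gene, against 36.2% of those without. This difference did not hold for the elements that recurred in all 6 libraries. Of the 55 such elements inside genes of 1 strand, 36.4% ran with the gene, against 50.2% of those seen in 1 library. The strand setting of the authors' counting is not given in the sources used here, and a longer element can collect more reads, so these figures are descriptions.

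The share of MLT1 counts that lay inside annotated genes did not separate the genotypes. On the assembled chromosomes it was 75.5, 54.8 and 62.7% in WT and 48.5, 61.6 and 68.8% in KO. The means of 64.3% ± 10.4 and 59.6% ± 10.3 (SD, n = 3) gave a log2 ratio of −0.11 (exact permutation p = 0.6, adjusted p = 0.6). Counted by elements rather than reads, 55.0 to 60.0% of the elements with counts of a library lay inside genes.

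Subfamilies differed widely in how much of their sequence was represented. Among the subfamilies with at least 1000 elements, the part with counts ran from 2.01% of MLT1J1 and 2.06% of MLT1J2 elements to 5.42% of MLT1C2 and 6.41% of MLT1D elements. Per length, the mean level was 635 CPM (counts per 1000000 of the library's counts over the 4 classes) for each megabase of annotated MLT1D sequence, 955 for MLT1H1, 679 for MLT1A and 38.4 for MLT1A1. The highest copy set alone held 76.6% of the MLT1H1 counts and 69.3% of the MLT1A counts, against 15.8% for MLT1D and 9.4% for MLT1A1. The highest levels per length were those of the short internal subfamilies MLT1F2-int (8357) and MLT1E2-int (2876), in which single copy sets held 76.1 and 99.6% of the counts. MLT1D was the most abundant subfamily, with 23.3% of all MLT1 counts on 1052 elements, followed by MLT1A with 9.16%.

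Counts were summed per subfamily and tested together with every other repeat subfamily by the edgeR quasi-likelihood test. 34 MLT1 subfamilies passed the filter on low counts and held 99.1% of the MLT1 counts; 22 further subfamilies had counts, at most 200.5 in total, and were not tested. The background was 6 called subfamilies (adjusted p under 0.05) of 573 tested, or 1.05%, of which 2 were higher and 4 lower in KO (2 and 2 with library totals in place of TMM). None of the 34 MLT1 subfamilies was called. 5 of them had an unadjusted p under 0.05 (edgeR), 4 with a positive and 1 with a negative log2 change, while 13.8% of all tested subfamilies did. The groups did not overlap for 5 MLT1 subfamilies with higher values in KO, namely MLT1D, MLT1G3, MLT1H, MLT1H2 and MLT1J-int, against a background of 10.3%. They did not overlap for 1 with lower values, MLT1H1, against 6.63%. The median log2 change was 0.57 over the 34 subfamilies and 0.03 over all 573, or 0.72 and 0.13 with library totals.

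MLT1D had 2841, 2957 and 2581 CPM after TMM scaling in WT and 4377, 10909 and 4622 in KO. All 3 KO libraries lay above all WT libraries, and KO replicate 2 stood well above the others. The log2 change was 1.25 ± 0.44 (SE), with an edgeR adjusted p of 0.281. Without KO replicate 2 it was 0.70 ± 0.43, and over loci with counts in at least 2 libraries it was 0.85 ± 0.43 (SE). The highest copy set of MLT1D held 15.8% of its counts, compared with a median of 32.4% over the tested subfamilies. In the MLT1D elements without a near-identical copy the log2 change was −0.01 ± 0.74 (SE).

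The MLT1H subfamilies went in different directions. MLT1H1 had 779.6, 3671 and 4142 CPM in WT and 197, 151 and 70.7 in KO, a log2 change of −4.33 ± 0.88 (SE) and the lowest adjusted p among MLT1 subfamilies (edgeR, 0.0647). Its highest copy set, the chromosome 16 elements printed above, held 76.6% of its counts, and without near-identical copies the log2 change was 0.14 ± 0.58 (SE). MLT1H2 had 34.5, 33.3 and 51.2 CPM in WT and 196, 484 and 490 in KO, a log2 change of 3.21 ± 1.00 (SE) with an edgeR adjusted p of 0.22. MLT1H had 58.6, 199.9 and 121 CPM in WT and 443, 504 and 1883 in KO, a log2 change of 2.87 ± 1.07 (SE) with an edgeR adjusted p of 0.291. In both of these every KO library lay above every WT library. For MLT1H the log2 change was 1.89 without KO replicate 3, and over loci with counts in at least 2 libraries it was −0.37. The elements without a near-identical copy gave log2 changes of 0.43 ± 0.53 for MLT1H2 and 1.41 ± 0.91 for MLT1H (SE).

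MLT1F1 was the remaining subfamily with an unadjusted p under 0.05. It had 66.1, 43.7 and 107 CPM in WT and 665, 896 and 98.7 in KO, so KO replicate 3 fell among the WT libraries (edgeR log2 change 2.89 ± 1.15, SE, adjusted p = 0.321). Its elements without a near-identical copy gave 0.52 ± 0.71 (SE). In MLT1C 1 library carried the difference. It had 257, 208 and 174 CPM in WT and 129, 182 and 2297 in KO, and its log2 change of 2.01 ± 1.25 (SE) rested on KO replicate 3, without which it was −0.43. MLT1D-int is the reverse case, with 401 CPM in WT replicate 1 and 8.07 to 39.0 in the other 5 libraries. MLT1J2 had 999, 56.2 and 1282 CPM in WT and 75.1, 56.5 and 252 in KO, and 80.9% of its counts came from 1 copy set. This set lay in FAM138 genes, a family of non-coding transcripts near chromosome ends.

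The log2 changes of the other abundant subfamilies were smaller than their SEs, at −0.60 ± 0.76 for MLT1A, −0.54 ± 0.82 for MLT1K, 0.79 ± 1.19 for MLT1F2, 0.59 ± 0.79 for MLT1C2, 0.54 ± 0.75 for MLT1A0 and 0.76 ± 0.82 for MLT1B (SE). They moved widely with the processing or a library left out. MLT1A0 reached 2.48 over loci with counts in at least 2 libraries, MLT1C2 was 1.42 without WT replicate 3, and MLT1K was −1.57 without KO replicate 1. MLT1E2-int, at −1.31 ± 1.11 (SE), was in effect 1 locus. It had 104, 96.3 and 136 counts in WT against 141, 58.3 and 6.68 in KO on a single element of 2683 bp on chromosome 2 (chr2:62629368-62632050), which overlaps an exon of an unnamed long non-coding RNA gene and runs in its direction. Over all 34 tested subfamilies the SE exceeded the log2 change in 20. Limited to elements without a near-identical copy, 33 subfamilies were tested, their log2 changes ran from −1.49 to 1.54 with a median of 0.21, and none had an unadjusted p under 0.05 (edgeR). The sign of the change was kept in 20 of the 33.

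The same test was run on single loci of the 4 classes. The background was 3 called loci of 3127 tested (0.0959%), all 3 of them FordPrefect elements. 37 MLT1 loci passed the filter, 28 of them with near-identical copies, and none was called. In data simulated with the spread of these libraries the locus test called none of the loci given a change, so the absence of calls does not show that the loci did not differ. The scaling mattered at this level, since library totals in place of TMM moved the median log2 change from 0.12 to −0.77 over all tested loci and from 0.32 to −0.49 over the MLT1 loci. 5 MLT1 loci had an unadjusted p under 0.05 (edgeR), against 7.48% of all tested loci. All 5 belonged to 1 copy set of 12 MLT1A0 elements on chromosome 5, its alternate sequences and chromosome 6, many of them in GUSBP pseudogenes, so they are not 5 separate observations. They passed the filter through the KO libraries alone, so their fitted changes are not given and nothing is read from their number. The set had 0 counts in each WT library and 302, 402 and 132 counts in the KO libraries. Its mean in KO was 363 CPM, at least 207-fold higher than the 3 counts over all WT libraries that a count of 0 allows, counting error only. This bound leaves out the spread between libraries and the fact that the set was reached through its KO counts. Libraries of 1 genotype also differed widely elsewhere, as in an MLT1E3 set with 1504, 2.1 and 1.9 counts in the KO libraries. The bound is therefore not an estimate of an effect of genotype. The copy in GUSBP13 (chr5:69894430-69894861) had 34.2, 42.7 and 25.8 counts in KO. That in GUSBP16 (chr5:70770312-70770743) had 47.3, 71.6 and 28.9 counts in KO. The edgeR adjusted p was 0.202 for each of the 5.

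The DESeq2 Wald test called 5 of the 30 MLT1 subfamilies to which it gave an adjusted p, the same 5 that had an unadjusted edgeR p under 0.05, against 12.0% of all subfamilies. At the level of loci, where it called 5.82% of all those tested, its only MLT1 calls were the 5 MLT1A0 copies with 0 counts in WT, for which the same limit holds.

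The pair of chromosome 16 elements had nearly opposite profiles. The MLT1H1 copy set of 5 elements, 99.0 to 100.0% identical to each other, had 0, 1744 and 1734 counts in WT against 79.3, 0 and 0.99 in KO. The MLT1D copy set, 98.3 to 99.8% identical, had 83.6, 0 and 6.5 counts in WT against 51.4, 1310.1 and 1745 in KO. No library was high in both, and WT replicate 1 and KO replicate 1 were low in both. Within the MLT1H1 set the copies at chr16:16503178-16504053 and chr16:15252667-15253542 had 427 and 439 counts in WT replicate 2 but 513 and 185 in WT replicate 3, so the division of the counts among the copies varied by library. For MLT1H1 at chr16:16503178-16504053 the log2 change was −4.64 ± 2.94 (SE), and for MLT1D at chr16:16515822-16516303 it was 5.32 ± 2.50 (SE, edgeR adjusted p = 0.767 and 0.71).

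The highest copy set of all was the pseudoautosomal MLT1A pair in DHRSX (chrX:2321388-2321730 and the same coordinates of chromosome Y), with 6.34% of MLT1 counts. It had 1177, 8.5 and 2311 counts in WT against 849.5, 824 and 339.5 in KO. The genotypes overlapped, and WT replicate 2 had almost none. The 2 copies were 100.0% identical, so a read within them cannot be placed on X or Y. Chromosome Y held 6.02% of the counts on copied MLT1 elements and 0.0078% of those on elements without a near-identical copy. The counts listed for Y are therefore no evidence of a second source. Next came 10 MLT1F2 and MLT1F2-int elements on chromosome 5 and its alternate sequences, with a copy in the cadherin gene CDH12. It had 0, 1620.4 and 726 counts in WT against 1093, 1709 and 94.0 in KO. An MLT1E3 set of 11 elements on chromosome 5 had 1504 counts in KO replicate 1 and 1.9 to 3.2 in each other library, and an MLT1D set of 4 elements at PDE4DIP, a centrosome and Golgi anchor gene, and its pseudogene had 1549 counts in KO replicate 2 and 0 elsewhere. Another MLT1D set of 13 elements on chromosomes 5 and 6 had 605, 998 and 2.66 counts in KO and 0 in WT.

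Loci without a near-identical copy that recurred in all 6 libraries had fewer counts than the summed copy sets of the paragraph before. The highest of them, the KREMEN1 element with 1024 counts, still had more than the MLT1A0 set with 836.7. The MLT1K element in LINC02620 (chr10:104479508-104480045) had 84.7, 98.1 and 50.4 counts in WT against 55.0, 41.5 and 51.5 in KO. The KO libraries were deeper, and per library total its level was 130.4, 197 and 89.9 CPM in WT and 66.9, 58.1 and 62.2 in KO, so every KO library lay below every WT library. With the TMM scaling of the locus fit the levels overlapped, at 246, 359 and 138 CPM in WT and 211, 184 and 167 in KO. The edgeR log2 change was −0.39 ± 1.05 (SE, adjusted p = 0.957), and −1.33 ± 1.07 (SE, adjusted p = 0.586) with library totals. The MLT1D element in KREMEN1 (chr22:29120559-29120891) had 679, 3.25 and 20.0 counts in WT against 278, 40.1 and 4.0 in KO, so a low and a high library occurred in both genotypes. An MLT1A element in an intron of STON1 (chr2:48564202-48564721), which encodes an endocytic adaptor, on the opposite strand to the gene, had 15.3, 7.23 and 19.5 counts in WT against 2.77, 31.7 and 167 in KO (edgeR log2 change 2.34 ± 1.28, SE, adjusted p = 0.74). KO replicate 3 held most of its counts. None of these recurrent loci was called by edgeR under either scaling.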

How the data were processed

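The members and lists were chosen with earlier results of these data known. Upstream, the authors used Trimmomatic 0.39, HISAT2 2.1.0 on hg38, Picard for duplicates and featureCounts per repeat element. The deposited values are estimated counts per element, fractional, and the options that made them so are not given in the sources used here. The table holds precipitated RNA without input or spike-in, so a difference mixes RNA abundance with m5C enrichment.

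Counts of the 4 classes were summed per subfamily or kept per locus, rounded, filtered with filterByExpr and tested with edgeR 4.0.16 (quasi-likelihood, TMM, prior count 2, Benjamini–Hochberg). The 5 summary measures were tested by exact permutation over 20 assignments. Near-identical copies came from BLAST 2.17.0, and gene context from GENCODE release 44, which does not cover alternate sequences. Named subfamilies were the 8 most abundant and, with at least 50 counts, the 4 largest log2 changes in each direction; named loci were the 8 highest, the 8 highest seen in all 6 libraries and up to 3 in each direction with an unadjusted p under 0.05. Both models were tested on simulated data with known changes and the spread of these libraries: the subfamily test recovered part of the changed items, and the locus test called none of them. DESeq2 1.42.0 was an alternative. Software was R 4.3.3, limma 3.58.1, Python 3.11.15 and pysam 0.24.0.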

Additional observations from a re-analysis of the deposited data

How the results depend on the processing

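No MLT1 subfamily was called by edgeR with the size factors of DESeq2, with library totals, without the expression filter, with every class, without the 10 highest elements of the table or without loci seen in 1 library. 1 was called (MLT1H1) without the highest locus of each subfamily and 5 by the DESeq2 Wald test. Leaving out each library gave 0 to 1 MLT1 subfamilies, with the 1 call (MLT1H1) without WT replicate 1, and 0 MLT1 loci. DESeq2 called 5 MLT1 loci. Over all subfamilies the 6 calls became 61 with DESeq2, 2 with only loci seen in at least 2 libraries, and 0 to 4 when a library was left out (0 without the second WT library or without either of KO replicates 1 and 2). The log2 ratio ran from 0.20 to 0.53 for the MLT1 share, from 0.10 to 0.75 for its ratio to THE1 and MST, from −1.04 to −0.79 for the 10 highest loci and from 0.25 to 0.59 for loci at a common depth when a library was left out. For loci seen in at least 2 libraries the MLT1 share gave 0.03, and its ratio to THE1 and MST reversed to −0.08. The share inside genes ran from −0.23 to 0.02, reversing without WT replicate 1 or KO replicate 1, by elements (0.02) and for elements without a near-identical copy (0.07). For such elements, an alternative chosen after seeing the data like copy sets and chromosomes only, signs turned for MLT1A (0.59), MLT1C (−0.62), MLT1D (−0.01), MLT1D-int (0.40), MLT1H1 (0.14) and MLT1J2 (0.14). For loci seen in at least 2 libraries they turned for MLT1C (−0.77), MLT1H (−0.37) and MLT1K (0.93). With a library left out, values ran from −1.06 to 0.40 for MLT1A (turned by WT replicate 3), from −0.43 to 2.53 for MLT1C (KO replicate 3), from −3.02 to 0.79 for MLT1D-int (WT replicate 1) and from −0.27 to 1.64 for MLT1F2 (KO replicate 2). Among named loci the MLT1A pair in DHRSX turned with a replicate block (0.83 on X, 0.31 on Y), as did the KREMEN1 element (0.02). With a library left out their log2 changes ran from −1.07 to 1.14 on X, −0.79 to 0.28 on Y and −2.63 to 3.28 for KREMEN1, and the MLT1E2-int element ran from −1.20 to 0.24. The causes were not tested. Same-numbered WT and KO libraries deviated with correlations of −0.055, 0.042 and −0.096, against −0.063 to 0.115 for pairs with different numbers. Such small values cannot show whether same-numbered libraries were prepared together, and the labels do not say. With a replicate block 7 subfamilies were called, 0 of them MLT1, and 0 MLT1 loci. With 3 libraries per genotype and SEs near 1 on the log2 scale for many subfamilies, moderate differences were not detectable.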
